A study of Homo sapiens with 4 samples.

Results

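Wnt signalling was examined through 10 genes: CTNNB1, APC, AXIN1, TCF7L2, AXIN2, LGR5, NKD1, SP5, RNF43 and ZNRF3. They were taken by gene symbol from the 57979 lines of the expression table, and each symbol stood on 1 line. The study asked what TXNDC9, a thioredoxin-domain protein that modulates the TCP1 chaperonin, does in hepatocellular carcinoma cells. Polyadenylated RNA was sequenced from 2 wild-type libraries and 2 TXNDC9 knockout libraries, all 4 labelled as HepG2, a human liver cancer cell line. The knockout was made with CRISPR-Cas9 from a lentiviral vector and 1 or the other of 2 guides. For its protein blot the study describes infected HepG2 cells that were sorted, with empty vector as the control. Whether the sequenced libraries came from those cells, which guide the knockout cells carried, and whether they were a clone or a pool is not given in the sources used here. Nothing in the labels says that the libraries of a group came from separate cultures, so the p-values measure the spread between these libraries, which may be technical.

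Canonical Wnt signalling acts by sparing beta-catenin from destruction. Without a ligand, a complex built on the scaffolds APC and AXIN1 marks beta-catenin (CTNNB1) for the proteasome. With a ligand, the complex is silenced, and beta-catenin enters the nucleus and binds TCF factors such as TCF7L2. Among the genes then transcribed are inhibitors of the pathway itself: AXIN2, a second scaffold, NKD1, which binds Dishevelled, and RNF43 and ZNRF3, membrane ubiquitin ligases that remove Frizzled receptors. LGR5, a receptor for R-spondins, which counteract these ligases, and SP5, a zinc finger transcription factor, are also direct targets. In liver, the pathway sets the programme of hepatocytes around the central vein. HepG2 is known for a deletion in 1 allele of CTNNB1 that removes the phosphorylation sites read by the destruction complex, a change that gene-level values cannot show.

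The labelled cell type was checked first against markers of hepatocytes. All 10 markers, which were ALB, AFP, TTR, APOA1, APOB, SERPINA1, HNF4A, FOXA2, TF and FGB, lay under 1 FPKM in each of the 4 libraries, and the highest value was 0.449 FPKM. FPKM counts fragments mapped to a gene, scaled to transcript length and to the mapped fragments of the library. Albumin (ALB), the main plasma protein of liver, was 0.0260 FPKM in wild-type replicate 1 and listed at 0 in the other 3 libraries. Alpha-fetoprotein (AFP), the fetal plasma protein of liver tumours, was 0.262 and 0.449 FPKM in wild-type cells, and 0 and 0.0996 FPKM in knockout cells. The hepatocyte transcription factor HNF4A reached at most 0.0628 FPKM. The summed level of the 10 markers ran from 0.446 to 0.733 FPKM in wild-type and from 0.0479 to 0.174 FPKM in knockout libraries. By contrast, 4 of 5 fibroblast markers passed an average of 1 FPKM, with sums of 48.7 to 53.3 FPKM in wild-type and 34.2 to 38.0 FPKM in knockout libraries. COL1A1 and COL3A1 carried most of these sums. PDGFRB went the other way, with means of 0.905 FPKM in wild-type cells and 2.81 FPKM in knockout cells, and COL1A2 was listed at 0 in all 4 libraries. These 4 were named after their values were seen. Endothelial markers summed to 0.803 to 1.22 FPKM and 3.42 to 4.41 FPKM, and leukocyte markers to 3.65 to 5.73 FPKM and 6.04 to 7.17 FPKM, with 1 marker of each list above an average of 1 FPKM. These differences between the groups in marker sums stand beside the results below, and their part in them was not tested. In such bulk libraries, fewer cells of a type and less RNA per cell cannot be told apart. The libraries therefore lacked the defining transcripts of the labelled cell type in both groups, and "HepG2" stands below only for the label.

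**Figure D1:**
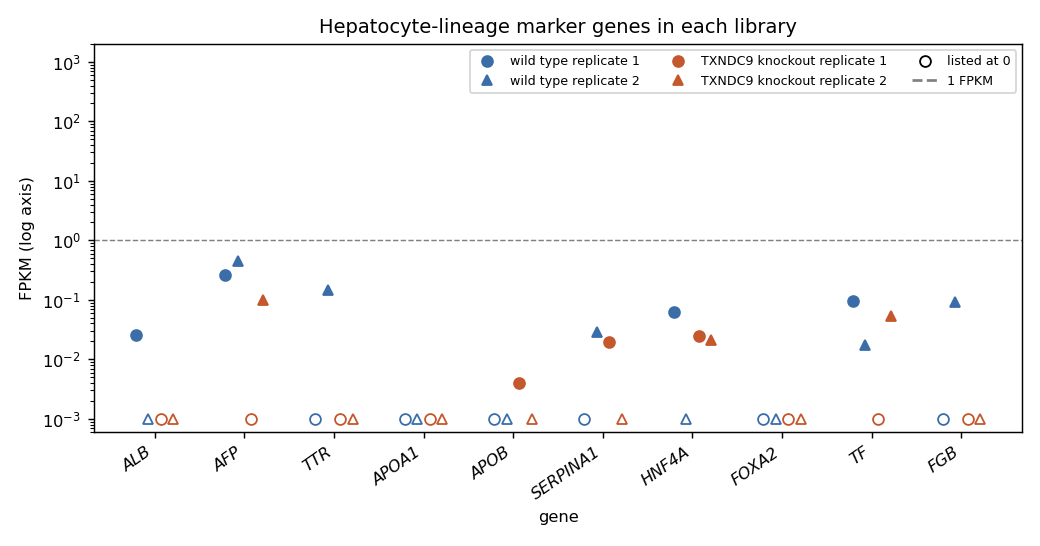
FPKM of 10 hepatocyte-lineage marker genes (log axis) in the 2 wild-type and 2 TXNDC9 knockout libraries, with values of 0 drawn as open symbols at the bottom. All points lie below the dashed line at 1 FPKM, and the highest is AFP at 0.449 FPKM in wild-type replicate 2.

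The targeted gene, TXNDC9, was 35.1 and 37.3 FPKM in wild-type cells, against 21.9 and 27.6 FPKM after knockout, or −0.55 on the log2 scale (limma, adjusted p = 0.0145). It was not called. The sign of this difference depended on scaling, since it became 0.12 when each library was rescaled to the same sum (TPM). The study reports TXNDC9 protein as reduced on a western blot of its knockout HepG2 cells, a measure that RNA levels do not give. FPKM values summed to 805816 and 971102 in wild-type libraries and to 535973 and 568279 in knockout libraries. TPM rescaling thus moved the median log2 fold change of all genes by 0.67, from −0.09 to 0.59. A gene was called when its adjusted p was under 0.01 with a change of at least 2-fold, among genes with an average above 1 FPKM. Of 13246 such genes, 15.3% were called lower and 14.2% called higher in knockout cells. The files hold no counts, and the depth of the libraries is unknown.

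SP5 carried the binding word of TCF factors in its promoter, and its sequence is shown because SP5 is among the most direct readouts of the pathway. Promoters from RefSeq on GRCh38.p14, from 250 bases before to 50 bases after a start site, were found for 6 of the 10 genes, with 10 start sites in all. The TCF word CTTTGAT was searched on both strands, and so were its variants ending otherwise: first CTTTGTT, then the variant CTTTGAA, and last the variant CTTTGTA. At least 1 of them stood in 13.75% of 35116 promoters of that length, and in 2 of the 10. SP5 held 3 matches, which begin 148, 109 and 84 bases before the start site. TCF7L2, itself a TCF factor, has 3 listed start sites, and the middle one, inside the gene, had 1 match that begins 133 bases upstream. The 250 bases before these 2 start sites read as follows on the plus strand, with the matched words in capitals. They lie at chr2:170715087-170715336 and chr10:113126383-113126632.
SP5: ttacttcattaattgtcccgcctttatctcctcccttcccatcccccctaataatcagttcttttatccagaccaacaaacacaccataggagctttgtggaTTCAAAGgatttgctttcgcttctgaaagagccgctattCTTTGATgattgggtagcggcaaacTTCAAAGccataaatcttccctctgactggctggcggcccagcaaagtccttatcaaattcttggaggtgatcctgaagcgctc
TCF7L2: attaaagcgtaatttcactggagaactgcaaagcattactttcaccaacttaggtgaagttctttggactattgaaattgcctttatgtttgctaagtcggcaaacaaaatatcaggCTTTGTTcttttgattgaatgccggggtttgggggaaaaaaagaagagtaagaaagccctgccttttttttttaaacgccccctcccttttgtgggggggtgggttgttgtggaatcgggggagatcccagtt
The start sites of CTNNB1, APC, AXIN1 and RNF43 held none of these words in the same window. A match marks letters only, and none of these data show binding.

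In wild-type cells the 10 genes fell into an expressed set and a set under 1 FPKM. FPKM is scaled to transcript length, which allows levels of different genes to be set side by side. The differences between the groups moved with length and GC content all the same (given below). The part of length and GC content in the order of genes was not tested. CTNNB1 was highest, at 54.9 ± 2.34 FPKM (SD, n = 2), above 87.5% of tested genes by its average over all libraries. AXIN1 followed at 16.3 ± 1.01 FPKM, TCF7L2 at 4.83 ± 0.665 FPKM and RNF43 at 3.85 ± 0.954 FPKM (SD, n = 2), the last 2 with overlapping values. APC at 2.17 ± 0.407 FPKM and ZNRF3 at 2.15 ± 0.314 FPKM (SD, n = 2) also overlapped. SP5, AXIN2, LGR5 and NKD1 lay below them in this order, with wild-type means of 0.374, 0.194, 0.0820 and 0.00132 FPKM. In knockout cells the order of the leading genes changed: CTNNB1 at 94.3 ± 1.49 FPKM was followed by TCF7L2 at 10.9 ± 0.462, APC at 10.4 ± 0.690 and AXIN1 at 9.73 ± 0.368 FPKM (SD, n = 2). APC overlapped with both of its neighbours there. RNF43 and ZNRF3 came next with means of 3.84 and 2.68 FPKM, and then SP5, AXIN2, LGR5 and NKD1, of which AXIN2 and LGR5 overlapped.

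**Figure D2:**
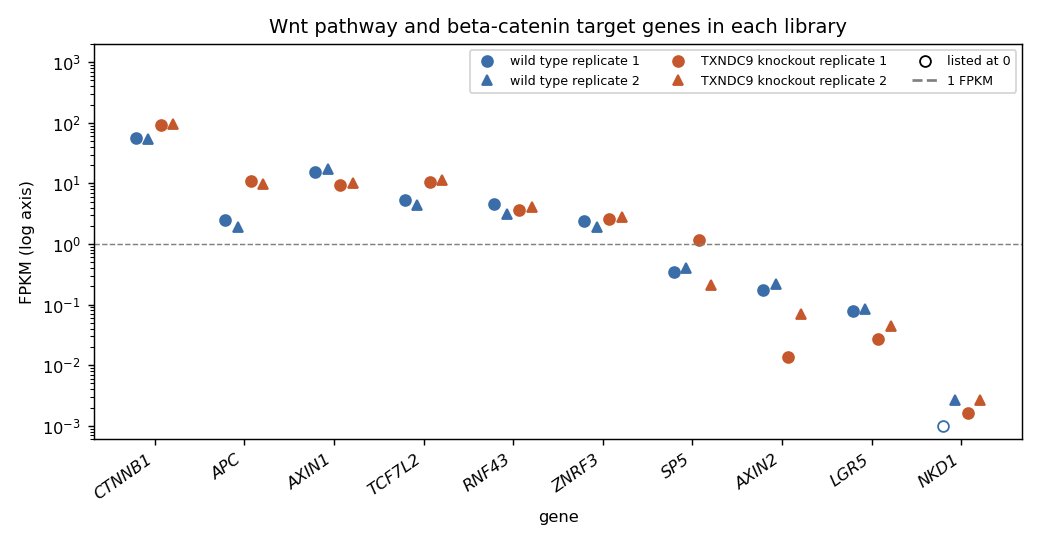
FPKM of the 10 genes (log axis) in each of the 4 libraries, ordered by role and level, with 0 drawn as an open symbol. SP5, AXIN2, LGR5 and NKD1 lie below the dashed line at 1 FPKM except for SP5 in knockout replicate 1 at 1.19 FPKM, while CTNNB1 lies between 53.2 and 95.3 FPKM.

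Of the 10 genes, 6 passed the average of 1 FPKM and were tested, and 4 did not pass. Upon TXNDC9 knockout, limma called 2 of the 6 higher, APC and TCF7L2, and 0 lower, against 14.2% and 15.3% of all tested genes. All 6 had a mean above 1 FPKM in both groups. At an unadjusted p under 0.05 and any fold, 3 were higher and 1 was lower, against 33% and 38.3% of all tested genes. Knockout values lay above both wild-type values for 4 of the 6 and below both for 1, where 40.1% and 45.9% of all tested genes did so. The median log2 fold change of the 6 was 0.54, beside −0.09 for all tested genes. Without knockout replicate 1 or without replicate 2, limma called neither APC nor TCF7L2. It then called no gene at all (given below), so this loss was not particular to them. Their log2 fold changes still lay between 1.13 and 2.29.

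Beta-catenin mRNA was higher in knockout cells by less than 2-fold. CTNNB1 (ENSG00000168036) spans positions 41194741 to 41260096 of chromosome 3, plus strand (hg38, as for all positions of genes below). It was 56.5 and 53.2 FPKM in wild-type cells, against 93.2 and 95.3 FPKM after knockout, and the groups did not overlap. On the log2 scale the groups differed by 0.78 (standard error 0.10, limma, adjusted p = 0.00143), which passed the p threshold but not the 2-fold limit, so it was not called. With TPM rescaling it was 1.46 and called. ULK4, on the opposite strand, overlaps the gene and was at most 3.20 FPKM.

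In FPKM as deposited, the destruction complex scaffolds differed in opposite directions. APC (ENSG00000134982), the large scaffold lost in most colorectal cancers, lies on chromosome 5 from 112707518 to 112846239, plus strand. It was 2.45 and 1.88 FPKM in wild-type cells, against 10.9 and 9.94 FPKM after knockout. Both knockout values were several times both wild-type values, a ratio of means of 4.82. APC rose with a log2 fold change of 2.23 (standard error 0.17, adjusted p = 5.38e-04 from limma), the largest among the 6 tested. AXIN1 (ENSG00000103126), on chromosome 16 from 287440 to 352723, minus strand, is the scaffold that limits assembly of the complex. It was 15.6 and 17.0 FPKM in wild-type cells, against 9.47 and 9.99 FPKM after knockout, without overlap. Its log2 fold change of −0.74 (standard error 0.11, adjusted p = 0.00196 from limma) was short of 2-fold and therefore not called. TPM rescaling brought it to −0.06 (adjusted p = 0.685 from limma). The correction for length and GC content described below brought it to −0.26 (adjusted p = 0.0995 from limma).

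The nuclear partner of beta-catenin rose as well, in a gene that shares its locus with a noncoding RNA on the opposite strand at 1.46 to 2.94 FPKM. TCF7L2 (ENSG00000148737), on chromosome 10 from 112950247 to 113167678, plus strand, was 5.30 and 4.36 FPKM in wild-type cells, against 10.6 and 11.3 FPKM after knockout. The knockout values stood about a factor of 2.26 above the wild-type values by the means. On the log2 scale it rose by 1.17 (standard error 0.14, limma, adjusted p = 0.00107). Its call was lost once transcript length and GC content were corrected for in every library, which left 0.77 (adjusted p = 0.00648 from limma).

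RNF43 and ZNRF3, the paired membrane ligases, showed no called change. RNF43 (ENSG00000108375), on chromosome 17 from 58353676 to 58417595, minus strand, was 4.52 and 3.17 FPKM in wild-type cells, against 3.62 and 4.06 FPKM after knockout. Both knockout values lay inside the wild-type range, with a log2 difference of 0.02 (standard error 0.21, limma, adjusted p = 0.946). ZNRF3 (ENSG00000183579), on chromosome 22 from 28883572 to 29057488, plus strand, was 2.38 and 1.93 FPKM against 2.60 and 2.75 FPKM. The groups were separate but close, with a log2 fold change of 0.31 (standard error 0.19, adjusted p = 0.204 from limma). The log2 ratio of ZNRF3 to RNF43 within a library, from which a common scaling of a library largely drops out, was −0.90 and −0.69 in wild-type and −0.46 and −0.55 in knockout cells. It differed by 0.29 between groups (exact permutation test, two-sided, p = 0.33, the smallest that 2 libraries against 2 can give), and by 0.0082 after the correction for length and GC content described below.

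The 4 remaining target genes averaged under 1 FPKM, and AXIN2, LGR5 and NKD1 did so in every library. AXIN2 (ENSG00000168646), on chromosome 17 from 65528563 to 65561648, minus strand, was 0.171 and 0.217 FPKM in wild-type cells, against 0.0136 and 0.0688 FPKM after knockout. Both knockout values were below both wild-type values, at levels far under the filter. On the log2(FPKM + 0.1) scale the difference was −1.08, but it ranged from −0.20 with a pseudocount of 1 to −2.23 with a pseudocount of 0.01. LGR5 (ENSG00000139292), on chromosome 12 from 71439798 to 71586310, plus strand, was 0.0782 and 0.0858 FPKM in wild-type cells, against 0.0272 and 0.0444 FPKM after knockout. LGR5 was thus also lower in both knockout libraries, by a log2 difference of −0.43, which was −0.06 with a pseudocount of 1, −1.03 with a pseudocount of 0.01 and −0.23 under TPM. The gene on the opposite strand that overlaps it, TSPAN8, was 26.6 and 40.0 FPKM in wild-type cells, against 17.8 and 19.0 FPKM after knockout, and whether reads were assigned by strand is not given in the sources used here.

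SP5 (ENSG00000204335), on chromosome 2 from 170715337 to 170718078, plus strand, was 0.339 and 0.409 FPKM in wild-type libraries. In knockout libraries it was 1.19 and 0.211 FPKM, on either side of the wild-type values, so the 2 knockout libraries differed more from each other than the groups did. NKD1 (ENSG00000140807), on chromosome 16 from 50548396 to 50649249, plus strand, was listed at 0 in wild-type replicate 1 and reached at most 0.00268 FPKM elsewhere. In a fit over all 26435 genes above 0 in any library, limma called 0 of these 4 genes, while 5.37% of genes were called lower and 5.98% higher. At an unadjusted p under 0.05, 1 of the 4 was lower, AXIN2 (adjusted p = 0.0770 from limma), where 21.5% of these genes were lower at that limit. The adjusted p of the others ran from 0.257 for LGR5 to 0.961 for NKD1. The log2 ratio of AXIN2 to its paralog AXIN1 was −5.86 and −5.75 in wild-type and −6.40 and −5.90 in knockout cells, a difference of −0.34 (exact permutation test, two-sided, p = 0.33) that turned to 0.49 with a pseudocount of 1.

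Paralogs of these genes were read in the same way. LGR4, the other main R-spondin receptor, was the expressed member of its family at 6.32 and 4.51 FPKM in wild-type cells, against 19.5 and 19.7 FPKM after knockout. It rose with a log2 fold change of 1.85 (adjusted p = 6.49e-04 from limma), or 1.17 after the correction for length and GC content. LGR6 was 0.133 and 0.0680 FPKM in wild-type libraries and listed at 0 in both knockout libraries. APC2 was at most 0.359 FPKM and NKD2 at most 0.230 FPKM in any library, and neither passed the filter.

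Transcript length and GC content moved with these differences. Across all tested genes, Spearman correlations of the log2 fold change were 0.495 with the length of the canonical transcript and −0.462 with its GC content. They are given as a description over genes that share their libraries. Over the 64 tested genes of the Wnt pathway the correlation with length was 0.506. APC, with the largest change, also had the longest transcript of the 6 tested, 10704 nt, and the lowest GC content, 39.6%. AXIN1, the 1 that was lower, had the highest GC content, 63.5%, with a length of 3707 nt. After each library was corrected for both, APC remained called at a log2 fold change of 1.10 (adjusted p = 0.00326 from limma), and CTNNB1 was 0.43 and AXIN1 −0.26. ZNRF3 and RNF43 then stood at −0.07 and −0.08. With that correction 1 of the 6 genes was called higher and 0 lower, where 6.38% and 7.72% of all 13112 genes were called. The share of each difference that belongs to length and GC content was not tested.

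**Figure D3:**
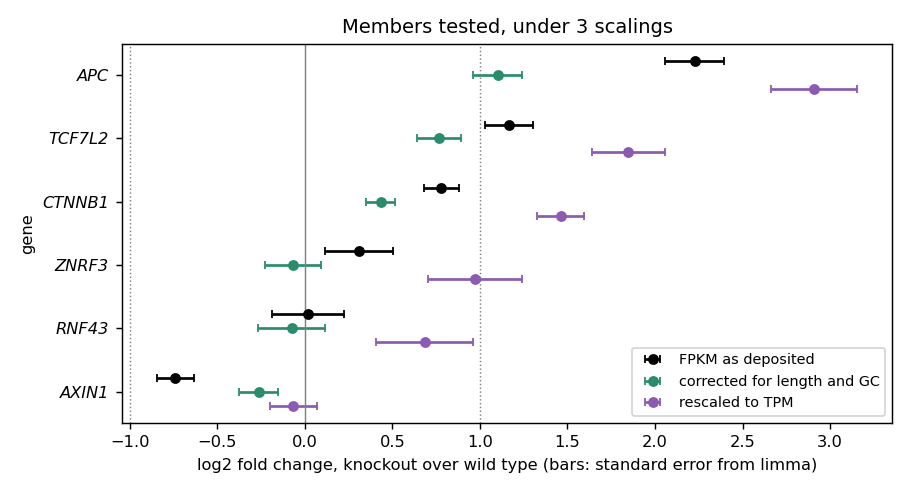
Log2 fold change, knockout over wild type, of the 6 tested genes with standard errors from limma, for FPKM as deposited, after correction for transcript length and GC content, and after rescaling to TPM. APC lies above 1 under all 3 scalings (2.23, 1.10 and 2.91), TCF7L2 falls under 1 after the correction (0.77), and AXIN1 moves from −0.74 to −0.06 under TPM.

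**Figure D4:**
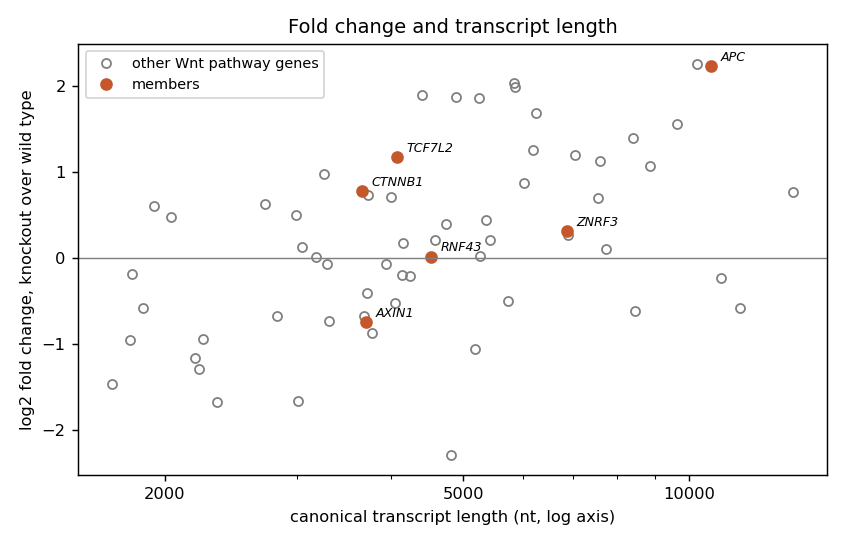
Log2 fold change, knockout over wild type, against canonical transcript length (log axis) for the 64 tested Wnt pathway genes, with the 6 tested members filled. Longer transcripts tend to lie higher (Spearman 0.506), and APC sits at the upper right at 10704 nt and 2.23.

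The rest of the pathway was read from 109 further genes listed by role, of which 58 passed the filter. Among these 58, limma called 7 lower and 12 higher, beside 15.3% and 14.2% of all tested genes. Of these calls, 6 lower and 10 higher had a mean above 1 FPKM in both groups. FZD5, FZD9 and ROR1 passed the filter through the group where they were high. The median log2 fold change of the 58 was 0.15. After the correction for length and GC content, 4 were called lower and 7 higher, where 7.72% and 6.38% of all genes were. Of those called, 2 and 6 were called in both fits. USP34 and CHD8 (lower) and JUN (higher) were called only after the correction, and were named after their values were seen. Lower in both fits were RSPO3 and CTNNBIP1, and higher in both were WNT5A, LRP6, LGR4, FBXW11, TLE4 and BCL9L, the last named after its values were seen.

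Ligands were few. Of 19 WNT genes, 5 were tested, and 1 was called higher and 0 lower, beside 14.2% and 15.3% of all tested genes. WNT10B was short of 2-fold (log2 fold change −0.94, adjusted p = 0.00116 from limma). WNT5A, a ligand best known for beta-catenin-independent signalling, was 19.5 and 18.6 FPKM in wild-type cells, against 74.1 and 82.2 FPKM after knockout. It rose with a log2 fold change of 2.03 (standard error 0.11, adjusted p = 4.86e-04 from limma), or 1.26 after the correction. WNT7B, at a like wild-type level, was 25.7 and 27.1 FPKM against 24.2 and 26.2 FPKM, and the groups overlapped. PORCN, the enzyme that acylates WNT proteins, and WLS, which carries them to the surface, were both tested and not called. WNT10B, WNT7B, PORCN and WLS were named after their values were seen.

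At the receptors, both directions occurred. Of 15 Frizzled, LRP, ROR and RYK genes, 13 were tested, 3 were called higher and 2 lower, beside 14.2% and 15.3% of all tested genes. Of these 5, FZD5, ROR1 and FZD9 had a mean above 1 FPKM in 1 group only, so they passed the filter through the group where they were high, and 1 higher and 1 lower call remained without them. LRP6, a co-receptor for canonical ligands, was 3.14 and 3.18 FPKM in wild-type cells, against 16.2 and 14.8 FPKM after knockout and rose with a log2 fold change of 2.26 (adjusted p = 4.86e-04 from limma). Its paralog LRP5, named after its values were seen, was 30.9 and 46.3 FPKM against 17.7 and 18.7 FPKM and fell by 1.05 on the log2 scale (adjusted p = 0.00497 from limma). The canonical transcript of LRP6 has 10252 nt and that of LRP5 has 5177 nt, and after the correction for length and GC content LRP6 was at 1.18 and still called, and LRP5 at −0.79 and not called. ROR1, a receptor for WNT5A, was 0.635 and 0.913 FPKM in wild-type cells, against 2.98 and 3.67 FPKM after knockout. After the correction it was still over 2-fold, at 1.29, with an adjusted p of 0.0115 from limma, just past the limit. FZD9, a Frizzled receptor, was 1.74 and 2.27 FPKM in wild-type cells, against 0.515 and 0.596 FPKM after knockout, and stood at −0.74 after the correction. FZD5 was named after its values were seen.

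Outside the cell, 2 of 6 R-spondin axis genes and 2 of 16 secreted or membrane-bound inhibitors were tested. RSPO3, an R-spondin made near the central vein in liver, was 4.68 and 6.07 FPKM in wild-type cells, against 0.744 and 1.37 FPKM after knockout. It fell by 2.29 on the log2 scale (standard error 0.31, adjusted p = 0.00167 from limma), and by 2.98 after the correction for length and GC content. Of the 7 further genes called lower before the correction, RSPO3 was the 1 whose fall grew with it. The falls of USP34 and CHD8, called only after the correction, grew as well. NOTUM, which deacylates WNT proteins and is a target of the pathway in liver, was 13.5 and 13.1 FPKM against 4.96 and 5.82 FPKM. It fell by 1.29 (adjusted p = 6.76e-04 from limma) and was no longer called after the correction. DKK1, the secreted antagonist of LRP5 and LRP6, named after its values were seen, was not called (log2 fold change −0.18, adjusted p = 0.149 from limma).

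In the cytoplasm, 14 of 16 transducers and partners of the destruction complex were tested. Of these, 4 were called higher and 1 lower, beside 14.2% and 15.3% of all tested genes. FBXW11, a ubiquitin ligase subunit that recognises phosphorylated beta-catenin, was 14.7 and 11.3 FPKM in wild-type cells, against 48.0 and 48.3 FPKM after knockout and rose with a log2 fold change of 1.89 (adjusted p = 5.38e-04 from limma). The tankyrases TNKS and TNKS2, which mark AXIN proteins for removal, rose from 2.54 and 2.66 to 8.29 and 7.39 FPKM and from 5.48 and 4.49 to 15.6 and 16.6 FPKM. Of GSK3A and GSK3B, the kinases of the complex, GSK3A fell from 58.1 and 65.1 to 25.9 and 29.1 FPKM, while GSK3B was 16.8 and 17.1 against 17.7 and 18.8 FPKM and was not called. After the correction the order of the kinases turned, with GSK3A at −0.45 (adjusted p = 0.0188 from limma) and GSK3B at −0.81 (adjusted p = 0.00315 from limma), neither of them called. TNKS at 0.58 and TNKS2 at 0.86 were not called after it either, while FBXW11 was, at 1.37. Both kinases were named after their values were seen.

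In the nucleus, 10 of 14 partners were tested, with 3 called higher and 1 lower, beside 14.2% and 15.3% of all tested genes. TLE4, a co-repressor of TCF factors, rose from 10.3 and 6.57 to 28.1 and 33.0 FPKM, and BCL9, a co-activator, from 2.90 and 2.52 to 6.10 and 7.12 FPKM, and after the correction BCL9 was at 0.92 (adjusted p = 0.00521 from limma), just short of 2-fold, and TLE4 at 1.41 and called. CTNNBIP1, a small protein that blocks binding of beta-catenin to TCF factors, fell from 10.5 and 10.8 to 2.90 and 3.78 FPKM (log2 fold change −1.66, adjusted p = 6.71e-04 from limma). LEF1, a TCF family member and target gene, was listed at 0 in all 4 libraries.

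Among 21 other target genes, 10 were tested, 1 was called lower and 0 higher, beside 15.3% and 14.2% of all tested genes. FOSL1, an AP-1 subunit, fell from 9.20 and 14.3 to 3.37 and 4.99 FPKM (log2 fold change −1.46, adjusted p = 0.00479 from limma), a call lost after the correction. JUN was called only after the correction, at a log2 fold change of 1.15 (adjusted p = 0.00264 from limma), beside 0.97 before it. GLUL, glutamine synthetase of hepatocytes around the central vein, was 9.13 and 7.36 FPKM against 13.9 and 12.8 FPKM and not called. Its log2 fold change of 0.69 (adjusted p = 0.00649 from limma) became −0.13 after the correction (adjusted p = 0.402 from limma). CCND1, cyclin D1, was 44.2 and 55.7 FPKM against 40.5 and 45.7 FPKM, with overlapping groups. CYP1A2, LECT2, SLC13A3, TNFRSF19 and ASCL2 were listed at 0 in all 4 libraries. GLUL, CCND1, LEF1 and these 5 were named after their values were seen.

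**Figure D5:**
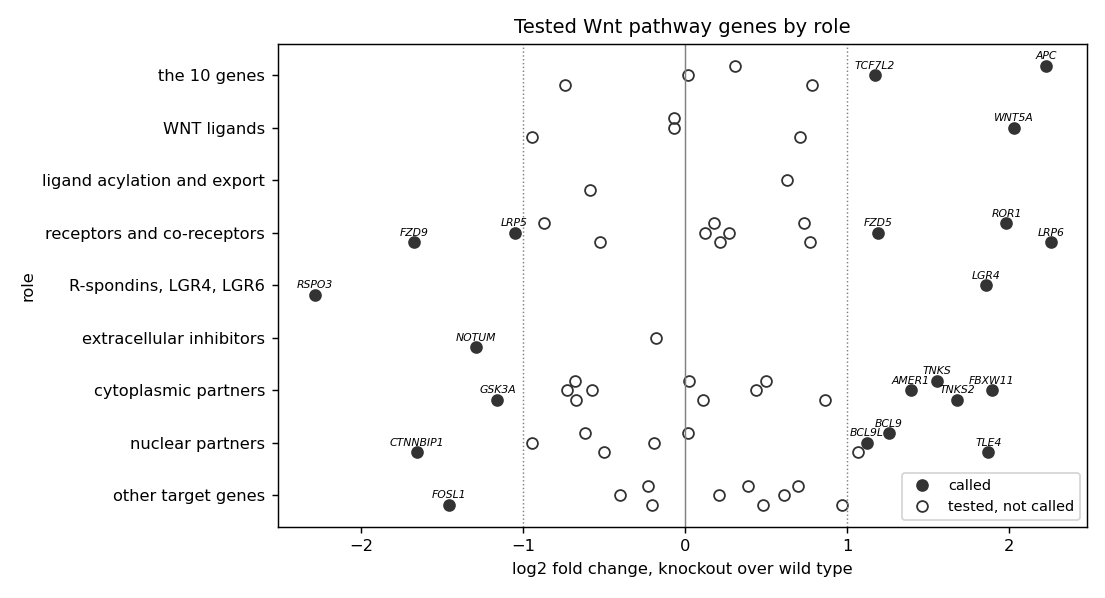
Log2 fold change, knockout over wild type, of the 64 tested Wnt pathway genes by role, with called genes filled and named. Called genes lie from −2.29 (RSPO3) to 2.26 (LRP6), the 10 genes of the opening hold 2 calls, both higher, and receptors, R-spondin genes, cytoplasmic and nuclear partners hold calls in both directions. The called receptors FZD5, FZD9 and ROR1 have a mean above 1 FPKM in 1 group only.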

How the data were processed

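RNA-seq libraries were made from polyadenylated RNA of cells labelled HepG2, 2 wild-type and 2 TXNDC9 knockout. The authors mapped reads to hg38 with TopHat2 and an Ensembl annotation and deposited FPKM per gene and library from Cuffdiff of Cufflinks, with versions and library normalization not given in the sources used here. The deposited averages, fold changes, p-values and q-values were not used. Each identifier was listed 4 times and stood beside other genes' symbols, so genes were read by symbol. Once identifiers were put back in order, those of all 10 members named the same gene in GENCODE release 44, the source of positions, lengths and GC content. FPKM holds no counts. Among genes under 0.03 FPKM, the most common ratio between replicates was shared by 2.44% in wild-type and 4.53% in knockout libraries. Such a share cannot tell whether single reads lie behind these values. The FPKM of 1 read was therefore not derived, and no intervals or detection limits are given.

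The 13246 genes whose FPKM averaged above 1 were compared on the scale log2(FPKM + 0.1). The test was limma 3.58.1, run in R 4.3.3 (trend in the prior variance, Benjamini-Hochberg adjustment over these genes) and genes were called at an adjusted p under 0.01 and 2-fold, the study's limits. For low genes this scale shrinks the fold change. The steps were tested on simulated data. The correction for length and GC content was a loess surface per library (span 0.3). Same-numbered libraries deviated with a correlation of −0.0904 and the labels name no pairing, so no replicate block was used in the main fit. With 2 libraries a group, this value cannot exclude a pairing. Members and lists were chosen with earlier results of these data known. Genes named are the 10 members, the paralogs LGR4, LGR6, APC2 and NKD2, TXNDC9, ALB, AFP and HNF4A, and in each role up to 3 called genes with the largest change, and others are marked where they occur. Each choice was also varied alone: pseudocounts 1 and 0.01, all genes above 0 or those averaging over 5 FPKM, the adjusted p at 0.05, TPM, median centring, no trend, the correction, the replicate block, and each library left out. Python 3.11.15 with pandas 2.3.3, numpy 2.4.6, scipy 1.17.1 and matplotlib 3.10.9 was used.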

Additional observations from a re-analysis of the deposited data

How the results depend on the processing

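With 2 libraries a group, limma rests on the spread shared across genes, and the unknown depth limits what can be said of AXIN2, LGR5, NKD1 and SP5. The counts of all genes called, 2021 lower and 1885 higher, moved by over 1.5 times under rescaling to TPM (447 and 4380) and under the correction for length and GC content (1012 and 836, or 987 and 724 with the replicate block), and 1220 were higher with an average above 5 FPKM. Among the members, the 2 called higher became 1 under the correction, with or without the replicate block. Of the 109 further genes, 7 lower became 3 without a filter, 1 under TPM and 4 under the correction (4 with the replicate block), and 12 higher became 24 under TPM and 7 under the correction (7 with the replicate block). With 1 library left out, the lone library of its group was assumed to vary like the other 2. Without knockout replicate 1 or 2, limma called 0 genes of any kind, with smallest adjusted p-values of 0.0160 and 0.0232, while 2022 and 2290 genes were lower and 2066 and 1973 higher at an unadjusted p under 0.05 and 2-fold, among them 0 and 2 members both times. Over all libraries left out, calls ran from 0 to 2633 lower and 0 to 2136 higher genes, 0 to 2 higher members, and 0 to 9 lower and 0 to 13 higher further genes. With the replicate block alone, 2146 genes were lower and 1960 higher, and 0 members lower and 2 higher. The numbers were not taken to pair the libraries (correlation of deviations −0.0904). RNF43 changed sign when centred on the median (−0.13), under the correction (−0.075, also with the replicate block), without wild-type replicate 2 (−0.23) and without knockout replicate 2 (−0.06), with 0.27 the highest value over libraries left out, and ZNRF3 under the correction (−0.067, also with the block). The AXIN2 to AXIN1 ratio difference changed sign with a pseudocount of 1 (0.49). These genes were not called in any of these settings, and no cause was tested.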

Other observations

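Beta-catenin also links cadherins to the cytoskeleton at cell contacts, and 12 cadherin and catenin genes were read as a list written after the data files had been opened but before these values were seen. Of the 12, 6 passed the filter. Among these, limma called 2 higher and 0 lower, beside 14.2% and 15.3% of all tested genes. The 2 were CTNND1 and CDH5, the second also among the endothelial markers. CDH5 had a mean above 1 FPKM in knockout cells only and passed the filter through them, and without it 1 call, CTNND1, was left. CTNND1, p120 catenin, which holds cadherins at the membrane, was 18.7 and 17.4 FPKM in wild-type cells, against 42.1 and 43.6 FPKM after knockout (log2 fold change 1.24, adjusted p = 5.38e-04 from limma, and 0.54 after the correction for length and GC content). CDH5 was 0.751 and 1.07 FPKM against 4.26 and 3.14 FPKM. JUP, plakoglobin, the closest paralog of beta-catenin, was higher in level than CTNNB1 in all 4 libraries, at 229 and 201 FPKM in wild-type cells, against 306 and 320.0 FPKM after knockout, and was not called (log2 fold change 0.55, adjusted p = 0.0120 from limma). The alpha-catenin CTNNA1 was 193.9 and 192.6 FPKM against 179.4 and 186.5 FPKM. Among the cadherins, CDH2 (N-cadherin) was 17.9 and 18.3 FPKM in wild-type cells, against 18.1 and 19.2 FPKM after knockout, and CDH1 (E-cadherin), the cadherin of epithelial cells and hepatocytes, stayed at or under 0.0879 FPKM in every library.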
